A study of Mus musculus with 24 samples.

Results

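Neurospheres cultured for 12 h from *Cep135*-mutant and control embryos were compared in 6 of the 24 libraries of the series. The 3 mutant libraries came from *Cep135* (-/-) embryos 1, 2 and 6 and the 3 control libraries from *Cep135* (+/+) embryos 3, 4 and 5, as the sample labels name them, and each embryo gave 1 library. All were mice of a C57BL/6J background. The study sequenced mutants with the smaller of its CRISPR deletions in the second exon of *Cep135*, which leads to a premature stop codon. The deletion is constitutive, so every cell of a mutant embryo carried it. Dorsal telencephalon was dissected at E14.5, dissociated, and grown in suspension with the growth factors EGF and FGF2, and both genotypes were handled this way. The same embryos also gave a 24 h culture and an uncultured cortex, which are used below only where the effect of the genotype is set beside that at 12 h. Throughout, values are listed in the order of embryos 1, 2 and 6 for mutants and 3, 4 and 5 for controls.

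CEP135 is a structural protein of centrioles, the cylinders around which the centrosome forms. Cells that lose centrosomes or stay too long in mitosis can activate a surveillance pathway in which 53BP1 and USP28 stabilise p53, and p53 in turn switches on inhibitors of the cell cycle such as *Cdkn1a* and genes of cell death. Neurospheres at this early stage are clusters of cortical progenitors together with young neurons that were in the tissue at dissection. Radial glia divide at the ventricle, their daughters pass through an intermediate progenitor stage, and neurons then switch on genes for adhesion, axons and synapses.

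Depth ran from 5248040 to 10620164 reads assigned to genes, and values are read counts that the authors divided by 1 size factor per library (normalized read counts). Reads come from the 3′ ends of transcripts. On the first principal component of the genes tested, which held 42.3% of the variance, mutant 6 lay at -107 and the other 5 libraries between -0.631 and 39.0. Mutant 6 therefore stood apart, and medians of several lists are also given without it or without another library. It had the most reads of the 6 libraries but the fewest genes above 0 (16377, against 17916 to 20638 in the others). On the second component (21.9%) control 4 lay at -70.1 and mutant 2 at 46.0. For 1 of 6 libraries the closest other one, by Euclidean distance, shared its genotype, and the mean distance was 115 both within and between genotypes. *Gm42418*, a gene with ribosomal RNA sequence, took 18.9%, 25.6% and 32.7% of the normalized read counts in mutants 1, 2 and 6, against 18.9%, 34.8% and 10.7% for controls 3, 4 and 5. By *Xist* and transcripts of the Y chromosome, mutants 1 and 2 were female and the other 4 embryos male. Sex and genotype can be told apart only through mutant 6.

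**Figure D1:**
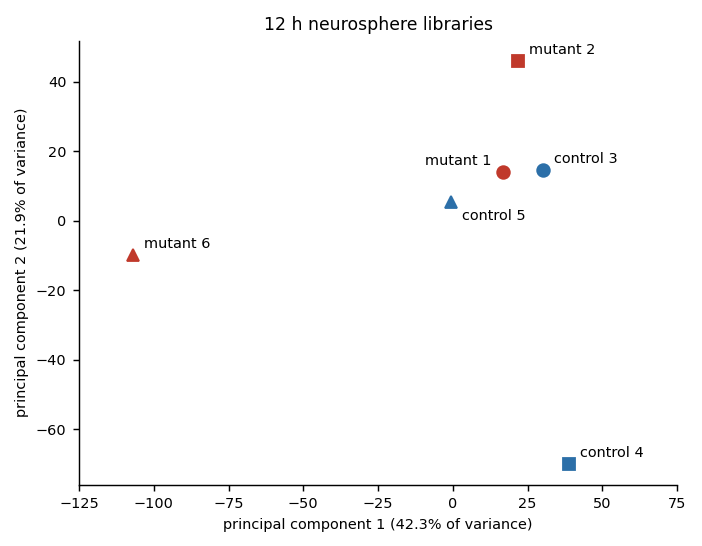
Principal components 1 and 2 of log2(normalized read count + 1) over the 13389 genes tested, with 1 point per 12 h library (mutants red, controls blue). Mutant 6 lies at -107 on the first component and control 4 at -70.1 on the second, and the genotypes do not form separate groups.

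Markers of cell types were summed in each library, which does not check the time in culture. Summed over 20 radial glia markers the normalized read counts were 18799, 22449 and 20157 in mutants against 19037, 19751 and 16602 in controls, and over 23 markers of postmitotic neurons 65029, 55044 and 62138 in mutants against 72969, 65984 and 76394 in controls. Both populations were therefore present in every library. In bulk libraries a different number of cells of a type and a different amount of RNA per cell cannot be told apart. Microglia were nearly absent, since 0 of the 15 markers passed the minimum mean of 10. The 15 markers summed to 36.1, 7.37 and 9.85 in mutants against 53.5, 47.0 and 50.9 in controls, so every mutant was lower, at few reads.

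*Cep135* itself (ENSMUSG00000036403, chromosome 5 of GRCm38, 76588698 to 76646466, plus strand) had normalized read counts of 260.3, 213 and 262 in mutants against 291, 336 and 201 in controls. The groups overlapped. The log2 fold change, taken here and below as mutant over control, was -0.15 (standard error 0.24) with a limma adjusted p of 0.941 and a two-sided exact permutation p of 0.6. The fold change turned to 0.01 without control 4. The deletion lies in the second exon and these reads come from 3′ ends, so the counts do not check the genotypes. A difference in the amount of transcript was not detectable with 3 libraries against 3.

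No gene passed an adjusted p of 0.05 at 12 h in limma with Benjamini-Hochberg adjustment over 13389 genes. At an adjusted p under 0.1 there was 1 gene (0.00747%). At an unadjusted p under 0.05 there were 650 genes (4.85%), 300 higher (2.24%) and 350 lower (2.61%) in the mutants. By edgeR on whole reads the count was also 0, with 616 genes at an unadjusted p under 0.05, and by DESeq2 it was 9. The DESeq2 genes were *Frrs1l*, *Col8a1*, *S100a6*, *Xist*, *Enpp2*, *Sgms2*, *Myof* and *Tagln2*, which were higher in mutants, and *Opcml*, which was lower. Of these, *Xist* follows the sex of the embryos. Every mutant lay above every control in 682 genes (5.09% of those tested) and below every control in 795 (5.94%). Of all genes, 47.8% had a log2 fold change above 0, and the median was -0.02. These shares are the background for each count below, where "apart" means that the 3 mutant and 3 control values did not overlap. The lists of genes were described by counts and medians only.

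*Cdkn1a* (ENSMUSG00000023067, chromosome 17, 29090976 to 29100727, plus strand), which encodes the cyclin-dependent kinase inhibitor p21 and is a direct target of p53, had counts of 1597, 1791 and 984 in mutants against 950.1, 798 and 695 in controls. The groups did not overlap, but mutant 6 lay only just above control 3. Means were 1458 ± 421 (SD, n = 3) for mutants against 815 ± 128 (SD, n = 3) for controls. This gave a log2 fold change of 0.80 (standard error 0.22) with a limma adjusted p of 0.913, and the exact two-sided permutation p was 0.1, the smallest that 3 against 3 can give. With a term for sex, which leaves mutant 6 against the male controls, the log2 fold change was 0.28, and without mutant 6 it was 1.07, with an adjusted p of 0.0584.

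Of the 20 p53 targets of arrest and repair, all tested, 15 were higher and 5 lower in mutants (median log2 fold change 0.32). Apart were 7 members, all higher, and 6 higher ones had an unadjusted p under 0.05. *Polk*, a DNA polymerase that copies past lesions, had 78.0, 81.0 and 120.0 in mutants against 20.4, 25.8 and 47.1 in controls, so that the lowest mutant was well above the highest control. *Rps27l*, a ribosomal protein paralog induced by p53, had 643, 679.7 and 970.1 in mutants against 544, 542 and 478 in controls. It also falls in the ribosomal protein family described further on. *Ccng1*, which encodes cyclin G1, had 292, 326 and 373 in mutants against 201, 263 and 225 in controls. *Psrc1*, *Btg2* (an antiproliferative factor of neurogenic progenitors) and *Ppm1d* (a phosphatase that turns the p53 response off) were the other members that were apart, with log2 fold changes of 0.61, 0.56 and 0.61. In *Polk*, *Rps27l*, *Ccng1*, *Psrc1*, *Btg2* and *Ppm1d* the highest value of the 6 was that of mutant 6, whereas in *Cdkn1a* mutant 6 was the lowest of the mutants. *Mdm2*, the ubiquitin ligase that degrades p53 and is one of its targets, had 688, 643 and 964 in mutants against 785, 636 and 732 in controls and a log2 fold change of 0.07, with overlapping groups.

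The promoters of 2 of these genes are shown because p53 binds copies of a decamer whose letters can be read from them. Sequences are RefSeq windows of GRCm38.p6, 5′ to 3′ along the gene, with each match to the p53 decamer, searched by name on both strands, in capitals. They are the members apart that hold a match before a RefSeq start lying within 10 bases of the start of the gene in GENCODE vM21. In *Cdkn1a* (chr17:29090871-29090972, plus strand) the matches began 73 and 51 bases before the RefSeq start. In *Ppm1d* (chr11:85311087-85311166, plus strand) the match began 132 bases before it.
Cdkn1a: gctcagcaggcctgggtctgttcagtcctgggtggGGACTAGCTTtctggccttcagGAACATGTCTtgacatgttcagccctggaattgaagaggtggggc
Ppm1d: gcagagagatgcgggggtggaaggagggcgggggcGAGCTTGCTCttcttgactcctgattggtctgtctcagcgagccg
Some genes have several RefSeq starts, some of them inside the gene. Over windows from 250 bases before to 50 after any of these starts, 9.55% of the 27025 genes in the RefSeq table held at least 1 such match. Of the 16 arrest and repair genes with a window 8 did, and of the 10 cell death genes 3 did. With the most upstream start of each gene alone, a choice made after seeing the data, 5 of 16 and 3 of 10 did, against 8.34% of all genes. A match is a description of letters, and binding was not measured here.

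Of the p53 targets of cell death, 13 of 14 were tested (*Fas* was below the minimum), and 9 were higher and 4 lower in mutants (median log2 fold change 0.29). Apart were *Trp53inp1*, *Eda2r* and *Tnfrsf10b*, all higher. *Trp53inp1*, a stress-induced nuclear protein that promotes p53 activity, had 384, 383 and 386 in mutants against 244, 224 and 285 in controls, and its mutant values lay close together. *Eda2r*, a receptor of the tumour necrosis factor family, had 61.4, 69.4 and 172 in mutants against 45.6, 45.8 and 25.1 in controls. *Tnfrsf10b*, a death receptor, had 21.4, 35.8 and 36.7 in mutants against 17.3, 11.7 and 13.7 in controls, which are low counts. *Bbc3*, which encodes PUMA, had 254, 224 and 387 in mutants against 195, 189 and 329 in controls, and *Bax* had 147, 158 and 113 in mutants against 199.8, 238 and 79.0 in controls, both with overlapping groups. The list's median was 0.62 without mutant 6 and 0.14 without mutant 2. With a term for sex, which compares mutant 6 alone with the controls, it was 0.0028.

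The lists of p53 regulators, Bcl2 family genes and caspases had medians near 0. Of 11 tested regulators of p53 and of mitotic surveillance, 6 were higher and 5 lower in mutants (median log2 fold change 0.03). *Trp53*, which encodes p53, had 145, 170.5 and 159 in mutants against 153, 214 and 80.5 in controls, and *Usp28* had 43.9, 55.8 and 62.7 in mutants against 75.5, 89.2 and 43.3 in controls. *Chek2*, a checkpoint kinase, was the 1 member apart, with 46.8, 37.9 and 40.3 in mutants against 37.8, 16.4 and 32.6 in controls. Among 13 tested Bcl2 family genes the median log2 fold change was 0.0053, and the 1 gene apart was *Hrk*, a BH3-only activator of cell death in neurons, which was lower in the mutants (626, 445 and 553 in mutants against 789.7, 814 and 802 in controls). Of 9 tested caspase and apoptosome genes 5 were higher and 4 lower in mutants (median log2 fold change 0.02), and 0 were apart.

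The centriole and centrosome list contains the partners of CEP135. All 26 were tested, and 10 were higher and 16 lower in mutants (median log2 fold change -0.01). *Plk4*, the kinase that starts centriole duplication, had 134, 153 and 292 in mutants against 116, 123 and 112 in controls. Its log2 fold change was 0.63 (standard error 0.31), and the groups did not overlap. *Spice1*, a centriole and spindle protein, had 99.4, 139 and 100.3 in mutants against 42.5, 58.7 and 66.0 in controls. *Aspm*, a spindle pole protein mutated in primary microcephaly, had 662, 944 and 1009.5 in mutants against 599, 588 and 569 in controls, and *Tubgcp3* of the γ-tubulin ring had 137, 216 and 178 in mutants against 109, 86.9 and 134 in controls. *Wdr62*, another microcephaly gene of the spindle pole, was lower in the mutants (29.2, 29.5 and 11.6 in mutants against 80.2, 61.1 and 31.1 in controls), and *Cep97* was the other gene apart and lower, with a log2 fold change of -0.32.

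**Figure D2:**
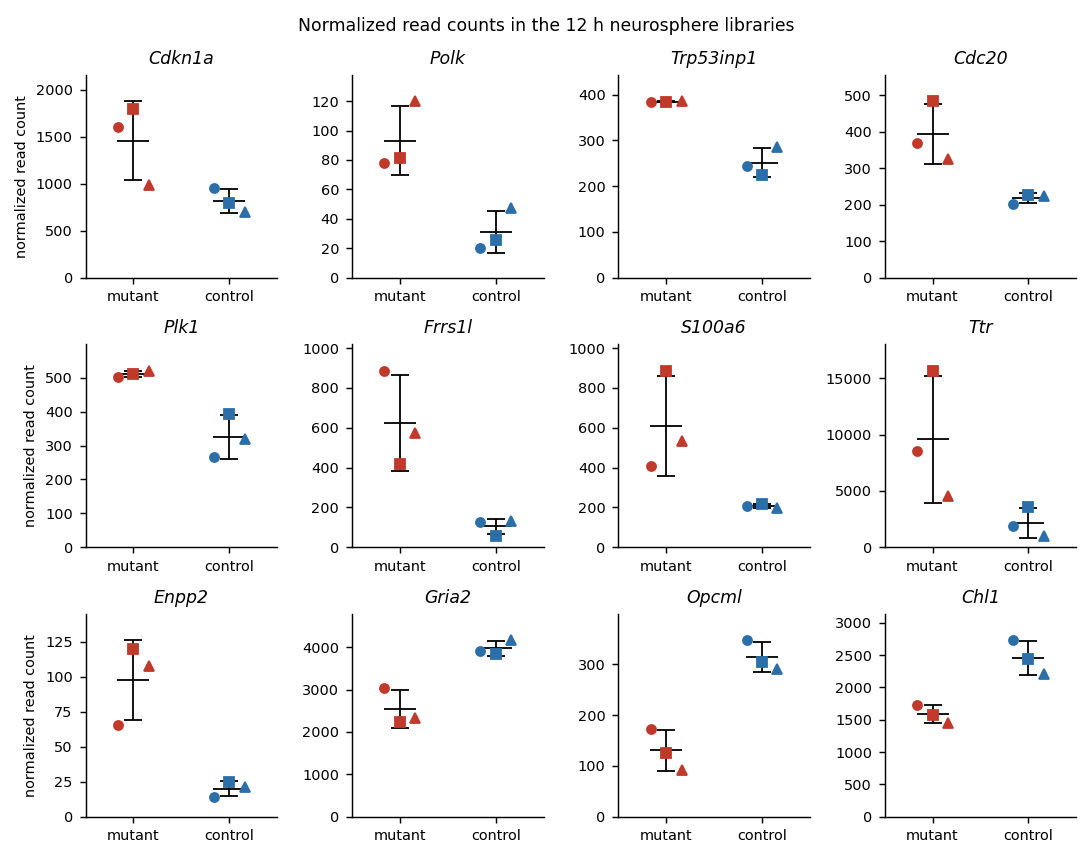
Normalized read counts of 12 genes in the 12 h libraries, on axes that start at 0. Points are libraries (circle, square and triangle for embryos 1, 2 and 6 in mutants and 3, 4 and 5 in controls), and bars give the mean ± SD of 3. The genes were picked from those apart, so in every panel the 3 mutant points lie on one side of the 3 control points. For *Cdkn1a* mutant 6 (984) lies close to control 3 (950.1).

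Genes of G2 and mitosis were mostly higher in the mutants. All 40 were tested, and 35 were higher and 5 lower in mutants (median log2 fold change 0.32). Apart were 9, all higher, and 7 had an unadjusted p under 0.05, again all higher. *Cdc20*, the activator of the anaphase-promoting complex, had 369.5, 484 and 326 in mutants against 203, 228 and 223 in controls. Its log2 fold change was 0.83 (standard error 0.22), with a limma adjusted p of 0.913. *Plk1*, a kinase of mitotic entry and spindle assembly, had 502, 510.3 and 521 in mutants against 266, 393 and 318 in controls, and the mutants lay close together. *Zwilch*, a part of the kinetochore complex that holds the checkpoint on, had 85.8, 152 and 107 in mutants against 66.1, 30.5 and 30.4 in controls. *Dlgap5*, a protein that bundles spindle microtubules, had 111, 159 and 145 in mutants against 75.5, 62.2 and 72.1 in controls. *Prc1*, which cross-links the central spindle, had 610.4, 607 and 761 in mutants against 393, 517 and 506 in controls, and *Nusap1*, another microtubule binder, had 692, 873 and 913 in mutants against 555, 642 and 623 in controls. *Kif14*, *Tpx2* and *Cdca8* were the remaining genes apart, with log2 fold changes of 0.47, 0.22 and 0.18. *Aurka*, a kinase of the spindle pole, had a control 5 above mutant 1 (119, 164 and 281 in mutants against 88.1, 36.4 and 135 in controls). The 5 members with lower values were *Cdc25c*, *Hmmr*, *Incenp*, *Mki67* and *Ttk*. *Mki67*, which encodes the proliferation antigen Ki-67, had 1620.4, 1857 and 1382 in mutants against 1848, 1809.5 and 1309.6 in controls. The median of the list was 0.27 without mutant 6, and ranged from 0.25 without mutant 2 to 0.47 without mutant 1. With a term for sex it was 0.50.

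Many genes of G2 and mitosis carry the cell cycle genes homology region (CHR, letters TTTGAA), through which they are repressed outside these phases. In the same windows at any RefSeq start, 24 of the 32 listed genes with a window held TTTGAA on either strand, against 20.2% of the 27025 genes in the RefSeq table. With the most upstream start alone it was again 24 of 32, against 18.2%. With the bases before the starts alone, also a choice made after seeing the data, it was 13 of 32 against 18.3%. *Cdc20* was the 1 gene apart with a match before a RefSeq start within 10 bases of the GENCODE start, and it is shown with the match in capitals. The match in *Cdc20* (chr4:118437344-118437396, minus strand) began 18 bases before the RefSeq start.
Cdc20: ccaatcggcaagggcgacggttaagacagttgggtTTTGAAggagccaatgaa

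Genes of S phase were evenly split. Of 32 tested S phase and licensing genes 16 were higher and 16 lower in mutants (median log2 fold change -0.03). *Tipin*, a replication fork protein, had 193, 277 and 314 in mutants against 137, 149 and 198 in controls. *Ccne2*, which encodes cyclin E2, and *Slbp*, the histone mRNA binding protein, were apart and lower, with log2 fold changes of -0.43 and -0.46, and *Gins1* of the replicative helicase was apart and higher (0.32). Among the other inhibitors of cyclin-dependent kinases 4 were tested, and *Cdkn1c*, which encodes p57, had 979.9, 1111 and 1612 in mutants against 798, 654 and 1202 in controls. Its log2 fold change was 0.49 (standard error 0.24) and its groups overlapped. The replication-dependent histones had a median of 0.07 over 42 tested genes, although poly(A)-primed libraries read these transcripts poorly.

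The gene with the smallest p at 12 h was *Frrs1l* (ENSMUSG00000045589, chromosome 4, 56957173 to 56990391, minus strand), which encodes a factor for the assembly of AMPA receptors. It had 887, 416 and 572 in mutants against 124, 58.7 and 129.8 in controls, so that the lowest mutant was more than 3 times the highest control. The log2 fold change was 2.59 (standard error 0.34), with a limma adjusted p of 0.0549. Under the alternatives the adjusted p ranged from 1.1e-10 with DESeq2 to 0.221 without control 3. In the same embryos *Frrs1l* had 891, 357 and 544 in mutants against 135, 84.3 and 123 in controls at 24 h. In the E14.5 cortices it had 771, 428 and 341 in mutants against 107, 76.9 and 88.1 in controls. It passed the test in both, with log2 fold changes of 2.31 (adjusted p = 0.00965) and 2.41 (adjusted p = 0.00796). In the E11.5 cortices, from other embryos, the groups overlapped, with 137, 253 and 148 in 3 mutants and 117, 193 and 262 in 3 controls.

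Of the 15 genes apart and higher with the smallest p, *Col8a1*, a short-chain collagen, had 169, 584 and 153 in mutants against 37.8, 52.8 and 12.1 in controls. *Sgms2*, a sphingomyelin synthase, had 60.5, 88.4 and 64.5 in mutants against 6.29, 17.6 and 3.80 in controls, and *Sdc4*, a cell surface heparan sulfate proteoglycan, had 57.5, 89.4 and 73.5 in mutants against 22.0, 24.7 and 13.7 in controls. In *Col8a1*, *Sgms2* and *Sdc4* the lowest mutant was more than 2 times the highest control, and mutant 2 was the highest library. *Slc5a3*, a myo-inositol transporter, had 1346, 1736 and 1323 in mutants against 801, 1125 and 576 in controls, and *Mapkap1*, a subunit of the mTORC2 complex, had 228, 332 and 227 in mutants against 131, 116 and 155 in controls. *AI506816* was also among the 15, with a log2 fold change of 0.94.

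The actin-linked and S100, annexin and galectin genes were the group with the most members at an unadjusted p under 0.05. Of 31 genes 28 were tested, and 24 were higher and 4 lower in mutants (median log2 fold change 0.64). There were 12 with an unadjusted p under 0.05 and 9 apart, all higher. *S100a6*, a calcium-binding protein, had 406, 887 and 532 in mutants against 209, 218 and 197 in controls, and its log2 fold change was 1.47 (standard error 0.26) with an adjusted p of 0.603 in limma. By DESeq2 the adjusted p was 0.00017. *Tagln2*, an actin cross-linker, had 821, 1016 and 638 in mutants against 464, 438 and 352 in controls. *Myl12a*, a regulatory light chain of nonmuscle myosin, had 322, 395 and 477 in mutants against 173, 142 and 239 in controls. *Myof*, a membrane repair protein, had 93.6, 287 and 91.4 in mutants against 36.2, 32.9 and 33.4 in controls. Mutant 2 was the highest of the mutants in *S100a6*, *Tagln2* and *Myof*, and mutant 6 in *Myl12a*. The 4 lower members were *Lgals1*, *Myl12b*, *Zyx* and *S100a10*. The median was 0.68 without mutant 6.

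Transcripts of the choroid plexus, the secretory epithelium next to the dorsal telencephalon, were higher in the mutants. Of 14 markers 10 were tested, and 9 were higher and 1 lower in mutants (median log2 fold change 1.80). *Ttr*, which encodes the thyroxine carrier of cerebrospinal fluid, had 8512, 15693 and 4507 in mutants against 1919, 3608 and 971 in controls, and its log2 fold change was 2.16 (standard error 0.44) with a limma adjusted p of 0.691. *Enpp2*, a secreted phospholipase, had 65.3, 120.0 and 107 in mutants against 14.2, 24.7 and 21.3 in controls. *Clic6* had 51.7, 90.5 and 52.8 in mutants against 7.87, 31.7 and 7.59 in controls, and *Sostdc1*, a secreted inhibitor of BMP and Wnt signals, had 214, 619 and 188 in mutants against 110.1, 149 and 31.9 in controls. Mutant 2 was the highest library in each of these genes. *Otx2*, the 5th gene apart, had a log2 fold change of 0.86. The summed level of the 14 markers was 9234, 17159 and 5152 in mutants against 2257, 4172 and 1206 in controls, and 0 of the 14 were at 0 in all 6 libraries. *Kcnj13*, *Kl*, *Prlr* and *Slc4a5* were below the minimum mean. With no minimum the list median was 0.81, and leaving out 1 library it ranged from 1.18 without control 5 to 2.33 without control 4. *Col8a1*, *Sgms2*, *S100a6* and *Sdc4* were highest in mutant 2, as the choroid plexus sum was. The part of that tissue in these differences was not tested.

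**Figure D3:**
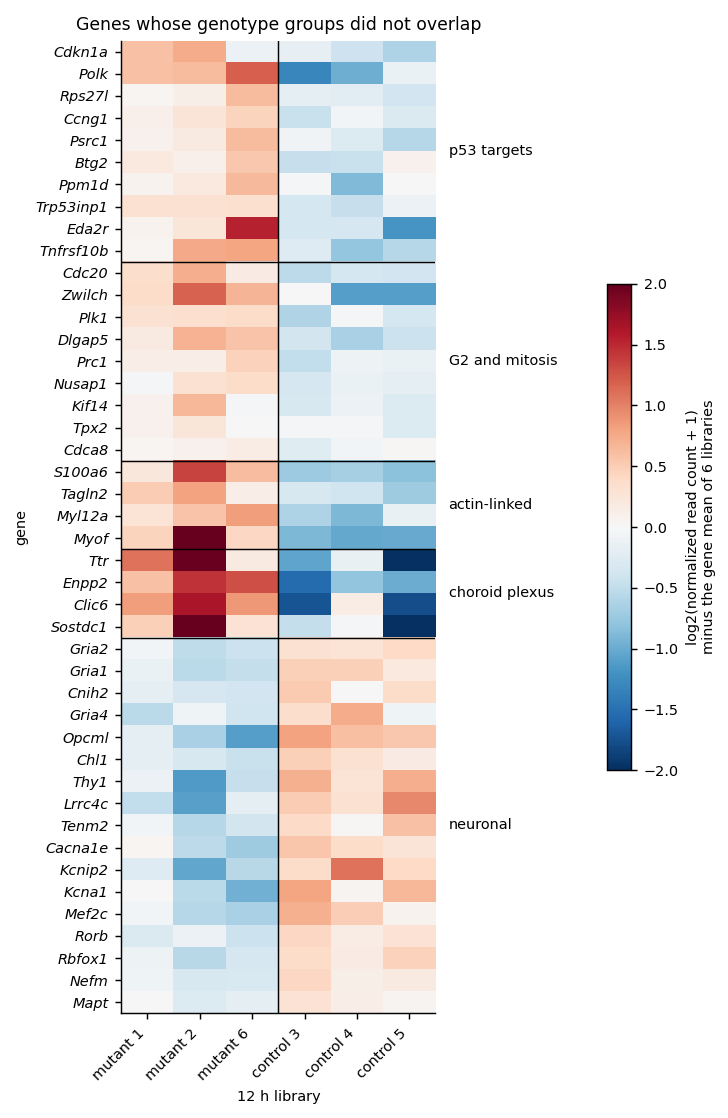
Log2(normalized read count + 1) minus the mean of the 6 libraries, for 44 genes whose genotype groups did not overlap at 12 h (red above, blue below the mean, colour capped at 2 on either side), grouped by list. The p53, mitotic, actin-linked and choroid plexus genes are mostly red in the 3 mutants and the neuronal genes mostly blue. This follows from the choice of genes apart in that direction. *Gabrb2*, *Grik2*, *Tenm1*, *Kcnd2* and *Efna5* of the neuronal lists were apart and higher and are not shown. Colours are strong for choroid plexus genes in mutant 2 and control 5.

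Neuronal genes were mostly lower in the mutants. Of 23 markers of postmitotic neurons, all tested, 2 were higher and 21 lower in mutants (median log2 fold change -0.25). Apart were 8, all lower, and 6 lower ones had an unadjusted p under 0.05. Their summed counts, given above, did not overlap between the groups, with 65029 in the highest mutant and 65984 in the lowest control. *Rbfox1*, a neuronal splicing factor, had 528, 386 and 449.7 in mutants against 735, 640.0 and 778 in controls. *Nefm*, a neurofilament subunit, had 873, 745 and 749.8 in mutants against 1235, 1005 and 1047 in controls, and *Mapt*, which encodes tau, had 5437, 4494 and 4769 in mutants against 6654, 5957 and 5692 in controls. *Celf4*, *Stmn3*, *Syt1*, *Elavl3* and *Map2* were also apart, with log2 fold changes between -0.35 and -0.13. The 2 members with values above 0 were *Tbr1* and *Nefl*. The median was -0.27 without mutant 6.

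Adhesion molecules of neurons had the same direction. Of 26 tested, 4 were higher and 22 lower in mutants (median log2 fold change -0.30), with 6 apart and lower and *Tenm1* apart and higher. *Opcml*, a GPI-anchored adhesion protein of the IgLON family, had 174, 126 and 92.3 in mutants against 348, 304 and 290.0 in controls, so that the highest mutant was below 60% of the lowest control. Its log2 fold change was -1.30 (standard error 0.27), with a limma adjusted p of 0.691 and a DESeq2 adjusted p of 0.0253. *Chl1*, a close homolog of the adhesion protein L1, had 1727, 1578 and 1447 in mutants against 2731, 2440.1 and 2208 in controls. *Thy1* had 83.8, 41.0 and 66.3 in mutants against 151, 110.4 and 152 in controls, and *Lrrc4c*, a netrin-G ligand at excitatory synapses, had 54.6, 35.8 and 67.2 in mutants against 110.1, 95.1 and 152 in controls. *Tenm2* and *Nrxn3* were the other members apart and lower, with log2 fold changes of -0.66 and -0.21. The median was -0.19 without mutant 2.

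Of 28 tested glutamate and GABA receptor genes, 11 were higher and 17 lower in mutants (median log2 fold change -0.21). The list's median ranged from -0.23 without control 4 to -0.11 without mutant 6. *Gria2*, the subunit that makes the channel impermeable to calcium, had 3047, 2226 and 2337 in mutants against 3912, 3829 and 4166 in controls, and its log2 fold change was -0.66 (standard error 0.15) with an adjusted p of 0.723 in limma. *Gria1* had 701, 526 and 551 in mutants against 1069.7, 1065 and 878 in controls, and *Cnih2*, an auxiliary protein of these receptors, had 1051, 949 and 918 in mutants against 1715, 1206 and 1534 in controls. *Gria4* was also apart and lower (-0.68), while *Gria3* had a log2 fold change of -0.0048 with overlapping groups. *Gabrb2* and *Grik2* were apart and higher, with log2 fold changes of 1.82 and 0.55, the first at low counts (10.7, 43.1 and 11.6 in mutants against 4.72, 2.35 and 6.83 in controls). *Gabrb2* passed the minimum mean only through the mutants. *Frrs1l*, whose product acts on the same receptors, was not in this list.

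Genes of synaptic vesicle release and ion channels were lower in most cases. Of 23 vesicle genes, 5 were higher and 18 lower in mutants (median log2 fold change -0.29). *Cplx1*, a clamp of vesicle fusion, had 214, 173 and 150.5 in mutants against 434, 291 and 233 in controls, and *Syt4*, a synaptotagmin, had 1249, 1290 and 1166 in mutants against 1768, 1660.4 and 1303 in controls. *Cplx1*, *Syt4* and *Syt1* were apart. The median was -0.17 without control 3. Of 28 tested ion channel genes, 6 were higher and 22 lower in mutants (median log2 fold change -0.18). *Cacna1e*, the pore of R-type calcium channels, had 677, 458 and 399.5 in mutants against 964, 848 and 782 in controls. *Kcna1*, a potassium channel of axons, had 151, 103 and 77.0 in mutants against 261, 156 and 241 in controls, and *Kcnip2*, a partner of A-type potassium channels, had 56.5, 32.6 and 45.7 in mutants against 88.1, 146 and 89.6 in controls. *Kcnq5* was the other gene apart and lower, and *Kcnd2* was apart and higher, with log2 fold changes of -1.70 and 0.40. The ion channel median was -0.27 without mutant 6.

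**Figure D4:**
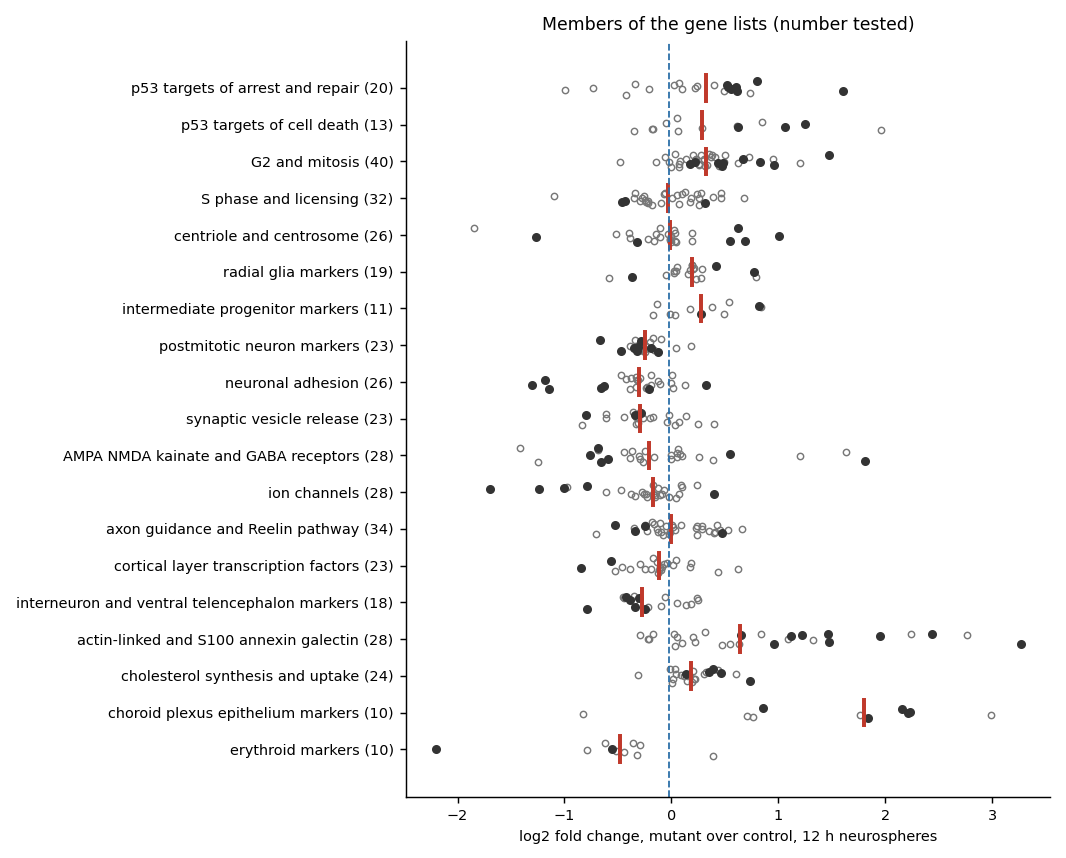
Log2 fold change of mutants over controls at 12 h for each tested member of 19 lists (number tested in parentheses). Filled points are genes whose groups did not overlap, red bars the list medians and the dashed line the median of all genes (-0.02). The medians of G2 and mitosis (0.32), actin-linked genes (0.64) and choroid plexus markers (1.80) lie to the right and those of neuronal adhesion (-0.30) and synaptic vesicle release (-0.29) to the left.

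Other genes of the 15 apart and lower with the smallest p included *Mmp17*, a membrane-anchored metalloprotease, with 101, 101 and 79.7 in mutants against 193, 210.2 and 211 in controls. *Prickle1*, a planar polarity protein, had 47.8, 35.8 and 46.6 in mutants against 175, 98.6 and 115 in controls, and *Clmp*, an adhesion protein, had 1454, 1176 and 1374 in mutants against 1823, 1868 and 2547 in controls. *Camk2b*, a subunit of the calcium and calmodulin kinase of synapses, had 365, 267 and 341 in mutants against 527, 567 and 581 in controls. *Zbtb12*, *Gm15965* and *Gm44836* had log2 fold changes of -0.57, -0.98 and -1.28. *Kdm5d* was also among the 15 (-4.59), but it lies on the Y chromosome and mutants 1 and 2 were female.

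Of 34 tested genes of axon guidance and the Reelin pathway, 17 were higher and 17 lower, with a median log2 fold change of -0.0039. *Robo1*, a Slit receptor, had 487, 396 and 430.0 in mutants against 636, 659.9 and 589 in controls and was apart. *Epha5* and *Epha4*, receptors of ephrins, were apart and lower (-0.34 and -0.25), and their ligand *Efna5* was apart and higher (0.47). *Dab1*, the adaptor of Reelin receptors, had 634, 479 and 573 in mutants against 988, 584 and 1300.5 in controls, with control 4 inside the range of the mutants. Of 23 cortical layer transcription factors, 6 were higher and 17 lower in mutants (median log2 fold change -0.12). *Mef2c* had 1266, 888 and 835 in mutants against 2159.8, 1844 and 1377 in controls, and *Rorb*, a factor of layer IV, had 593, 671 and 538 in mutants against 971, 807 and 889.8 in controls, and both were apart. *Tbr1*, *Fezf2* and *Bcl11b*, factors of the deep layers, had log2 fold changes of 0.19, -0.12 and -0.08, with overlapping groups. Without control 5 the medians were -0.06 for both lists, and that of the layer factors was -0.18 without mutant 1.

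The study named 9 nervous system genes in its 12 h cultures, chosen on these libraries, so their direction is not independent evidence. All 9 had an unadjusted p under 0.05, with *Cdc20* higher and the other 8 lower, and 8 of the 9 were apart. Of those not yet described, *Nav2*, a microtubule-associated helicase homolog, had 239.8, 168 and 155 in mutants against 359, 295 and 303 in controls. *Shank1*, a scaffold of the postsynaptic density, had 350.0, 213 and 256 in mutants against 448, 424 and 422 in controls.

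Neurons of other origin were described by their own markers. All 8 markers of Cajal-Retzius cells, the early neurons that secrete Reelin, were higher in the mutants (median log2 fold change 0.51). *Ndnf* had 86.8, 77.9 and 92.3 in mutants against 53.5, 42.3 and 35.7 in controls, and *Lhx5* was the other gene apart (0.63). *Reln* itself had 354, 205 and 367 in mutants against 208, 213 and 261 in controls, with overlapping groups. Of 18 tested markers of interneurons and the ventral telencephalon, 5 were higher and 13 lower in mutants (median log2 fold change -0.27), and 6 were apart and lower. *Npy*, which encodes neuropeptide Y, had 211, 276 and 170.2 in mutants against 507, 360.5 and 282 in controls. *Dlx6os1*, which overlaps *Dlx6* on the other strand, had 697, 679 and 699.6 in mutants against 1044, 919 and 831 in controls. *Lhx6*, *Sp9*, *Dlx1* and *Dlx6* had log2 fold changes of -0.38, -0.34, -0.24 and -0.30. The median of this list was -0.15 without mutant 1.

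Markers of progenitors were mostly higher in the mutants. Of 19 tested radial glia markers, 16 were higher and 3 lower in mutants (median log2 fold change 0.19). *Gli3*, the Hedgehog effector that patterns the dorsal telencephalon, had 199, 239.9 and 302 in mutants against 171, 126 and 133 in controls, and *Pax6* had 254, 298 and 313 in mutants against 252, 157 and 251 in controls. Both were apart, whereas *Ptn* was apart and lower (-0.36). *Vim*, which encodes vimentin, had 5506, 6618 and 7008 in mutants against 5666, 5259 and 4750.2 in controls, with control 3 above mutant 1. The list's median ranged from 0.055 without control 5 to 0.26 without control 4. Of 11 tested markers of intermediate progenitors, 8 were higher and 3 lower in mutants (median log2 fold change 0.28). *Mfng*, a glycosyltransferase of Notch receptors, had 176, 268 and 159 in mutants against 110.1, 99.8 and 123 in controls and was apart, as was *Gadd45g* (0.28). *Neurog2*, the proneural factor of these cells, had 336, 251 and 452 in mutants against 203, 256 and 239 in controls, with overlapping groups. The median was 0.12 without mutant 2.

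Among signalling pathways the list medians were 0.26 for Notch (14 genes tested), 0.25 for Hedgehog (10 genes) and 0.04 for the FGF and EGF feedback genes (14 genes). The Notch target *Hes1* had 53.6, 64.2 and 88.7 in mutants against 29.9, 31.7 and 60.0 in controls. The Notch median ranged from 0.13 without control 5 to 0.48 without control 4, and with a term for the share of *Gm42418* it was 0.073. The Hedgehog median was 0.04 without mutant 2 and 0.41 without mutant 1. In this list *Gli3* and *Gli2* were apart and higher, the second at low counts (9.75, 30.5 and 15.2 in mutants against 6.29, 2.35 and 9.11 in controls). *Gli2* passed the minimum mean only through the mutants. *Spred1*, which limits FGF signalling, was the 1 feedback gene apart (0.30), and *Ccnd1*, which encodes cyclin D1, had 1099, 1259.5 and 1785 in mutants against 1049, 1004 and 1100 in controls. Of 13 tested BMP ligands and targets, 8 were higher and 5 lower in mutants (median log2 fold change 0.33). *Bmp4*, a ligand of the dorsal midline, had 41.0, 74.7 and 28.7 in mutants against 15.7, 22.3 and 8.35 in controls, and *Bmp2* had 22.4, 58.9 and 60.0 in mutants against 9.44, 10.6 and 10.6 in controls. Their target *Id1* was also apart (0.95). With a minimum mean of 50 only 3 members of this list remained and the median was -0.11, and leaving out 1 library it ranged from 0.18 without control 3 to 0.52 without mutant 1. Of the 12 tested Wnt and R-spondin genes of the cortical hem, the organising centre beside the choroid plexus, 7 were higher and 5 lower in mutants (median log2 fold change 0.24). *Rspo3*, an R-spondin that strengthens Wnt signals, had 686, 485 and 519.5 in mutants against 942, 768 and 1351 in controls, and *Nkd1*, a Wnt feedback inhibitor, had 61.4, 86.3 and 111 in mutants against 29.9, 2.35 and 55.4 in controls. The hem median was 0.70 without mutant 6 and -0.10 without control 5.

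Genes that mark the age of progenitors pointed both ways. Of 13 tested, 5 were higher and 8 lower in mutants (median log2 fold change -0.05). *Hmga2*, a chromatin protein of early neural stem cells, had 627, 1019 and 582 in mutants against 511, 291 and 365 in controls. *Lin28b*, an inhibitor of let-7 miRNAs, had 62.4, 104 and 51.1 in mutants against 17.3, 37.6 and 40.2 in controls, and *Prtg*, an early neuroepithelial receptor, had 17.6, 44.2 and 19.7 in mutants against 1.57, 1.17 and 0.76 in controls, which in the controls is 1 read per library. These were the 3 genes apart and higher, and *Prtg* passed the minimum mean only through the mutants. *Nfix*, a factor of late progenitors and neurons, had 2710.5, 1949 and 2075 in mutants against 3517, 2756 and 3263 in controls, and *Igf2bp3* was the other gene apart and lower (-0.22). Of 17 tested imprinted genes of growth, 12 were higher and 5 lower in mutants (median log2 fold change 0.18). *Nnat* had 42772, 34141 and 30305 in mutants against 50270, 46485 and 48023 in controls and *Plagl1* had 307, 448 and 448 in mutants against 589.9, 598 and 547 in controls, both lower, while *Grb10*, an adaptor that restrains growth signals, had 711, 779.7 and 1112 in mutants against 571, 624 and 504 in controls. The imprinted median was 0.11 without control 4, and that of the timing list was -0.13 without mutant 2 and 0.07 without control 4.

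Stress and metabolism lists had median log2 fold changes between -0.48 and 0.18. Of 24 tested genes of cholesterol synthesis and uptake, 22 were higher and 2 lower in mutants (median log2 fold change 0.18). *Lss* had 599.6, 549 and 547 in mutants against 433, 416 and 443 in controls and *Tm7sf2* had 143, 107 and 196 in mutants against 96.0, 72.8 and 91.9 in controls, and *Idi1*, *Nsdhl* and *Srebf2* were also apart and higher (0.46, 0.35 and 0.13). Of 18 tested immediate early genes, 5 were higher and 13 lower in mutants (median log2 fold change -0.26). *Jun* had 1341, 1415 and 1119.7 in mutants against 1818, 1801 and 1554 in controls and *Egr1* had 1088, 1001 and 932 in mutants against 1353, 1474 and 1127 in controls, both apart and lower. The median was -0.44 without control 5 and -0.13 without mutant 6. The integrated stress response list had a median of -0.04 over 24 genes, with *Ddit4* (759, 663 and 764 in mutants against 494, 526 and 611 in controls) and *Hspa5* apart and higher and *Trib3* (23.4, 11.6 and 12.5 in mutants against 42.5, 45.8 and 34.9 in controls) and *Asns* apart and lower. Medians were 0.05 for cytosolic heat shock (11 genes), 0.06 for hypoxia and glycolysis (24 genes) and -0.48 for the interferon response, of which 7 of 21 genes were tested. The interferon median was -0.19 without mutant 6. The sign of the integrated stress, heat shock and hypoxia medians also changed when 1 library was left out. Of 85 tested cytosolic ribosomal protein genes, 62 were higher and 23 lower in mutants (median log2 fold change 0.11), and the median was 0.061 without control 4. The 25 tested mitochondrially encoded genes had a median of -0.09, and took 4.40% to 4.93% of the counts of mutants against 4.13% to 4.89% for controls.

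Markers of cells outside the neural lineage were present at low or uneven levels, except erythroid markers, which were abundant in every library. Erythroid markers summed to 69471, 93985 and 108683 in mutants against 106668, 153196 and 122720 in controls, and of the 10, all tested, 1 was higher and 9 lower (median log2 fold change -0.48, and -0.27 without mutant 1). Of the 16 endothelial and pericyte markers 6 were tested, and the 16 summed to 220.3, 236 and 362 in mutants against 171, 176 and 163 in controls. *Kdr*, a VEGF receptor, had 42.9, 34.7 and 53.7 in mutants against 11.01, 4.70 and 5.31 in controls, and *Egfl7* had 23.4, 30.5 and 37.6 in mutants against 3.15, 9.39 and 11.4 in controls, and both were apart and higher. Of the defining markers, *Pecam1* had 13.7, 26.3 and 12.5 in mutants against 36.2, 36.4 and 14.4 in controls, and *Cdh5* was below the minimum mean. *Kdr* and *Egfl7* passed the minimum mean only through the mutants. The list median of 1.12 was 0.11 without mutant 6, 1.97 without control 4 and 0.22 with no minimum. Meningeal and fibroblast markers summed to 212, 143 and 266 in mutants against 132, 178 and 156 in controls, with 4 of 12 tested and *Col1a1* apart and higher (1.01). The median of those 4 was 0.51, with 0.18 without mutant 6 and 0.80 without mutant 2. Liver transcripts summed to 603, 250.4 and 1185 in mutants against 23.6, 1684 and 1264 in controls, so that control 3 held few of them, and 12 of 14 were tested with 0 apart. Their median turned from 0.63 to -1.33 without control 3 and was 1.93 without control 5. Of 9 markers of oligodendrocytes and astrocytes 3 were tested, with *Olig1* apart and lower (-0.25), and the median of -0.25 was -0.0042 without mutant 6 and -0.48 without control 5.

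The same 6 embryos allowed the effect of the genotype at 12 h to be set beside that at 24 h and in the uncultured E14.5 cortex. The labels of the cortex library of mutant 6 differ, with E14.5 in its title and E11.5 in its description, and it was taken as E14.5 from the title. The difference between the effects was tested with an interaction term. Its main fit took libraries of the same embryo as independent. Against 24 h, 0 of 13359 genes passed in limma (318 at an unadjusted p under 0.05, 2.38%), and 0 did by edgeR. With the embryo as a block it was also 0. Against the cortex, 0 of 13601 genes passed in limma (724 at an unadjusted p under 0.05, 5.32%), and 1, *Kdr*, did by edgeR. With the embryo as a block 3 genes passed, *Alb*, *Serpina1e* and *Rn7sk*. 

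*Cdkn1a* was higher in the mutants in all 3 materials, with log2 fold changes of 0.80 at 12 h, 1.02 at 24 h (adjusted p = 0.0109) and 0.83 in the cortex (adjusted p = 0.310). The limma p of its interaction, unadjusted, was 0.457 against 24 h and 0.941 against the cortex. The p53 arrest and repair list had medians of 0.42 at 24 h and 0.25 in the cortices, and the p53 cell death list 0.54 at 24 h and 0.46 in the cortices. For genes of G2 and mitosis the medians were 0.22 at 24 h and 0.26 in the cortices, and for S phase, which was near 0 at 12 h, 0.36 at 24 h and 0.21 in the cortices. *Cdc20* had log2 fold changes of 0.83, 0.29 and 0.24 in the order 12 h, 24 h and cortex.

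Several genes had a difference in both cultures that was small in the cortex. *S100a6* had log2 fold changes of 1.47 at 12 h, 2.12 at 24 h (adjusted p = 0.0109) and -0.16 in the cortex. For *Ttr* they were 2.16, 2.35 and -0.45, and for *Col8a1* 3.04, 2.48 and -0.57. The adjusted p of the 12 h against cortex interaction was 0.793 for *S100a6*, 0.793 for *Col8a1* and 0.793 for *Ttr*, so a difference between culture and tissue was not shown. The choroid plexus markers had medians of 2.05 at 24 h and 0.04 in the cortices, and the actin-linked list 0.69 at 24 h and 0.12 in the cortices.

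Among neuronal genes, *Chl1* had log2 fold changes of -0.63 at 12 h, -0.70 at 24 h (adjusted p = 0.0166) and -0.54 in the cortex. *Opcml* had -1.30, -1.14 (adjusted p = 0.0109) and -0.47, and *Mef2c* -0.85, -0.69 (adjusted p = 0.0444) and -0.44. The medians of the postmitotic neuron markers were -0.32 at 24 h and -0.21 in the cortices, and those of the synaptic vesicle genes -0.31 at 24 h and -0.01 in the cortices. *Rspo3* had log2 fold changes of -0.83 at 12 h, -0.92 at 24 h (adjusted p = 0.0150) and 0.26 in the cortex. The 3 materials share embryos and are not independent of each other.

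**Figure D5:**
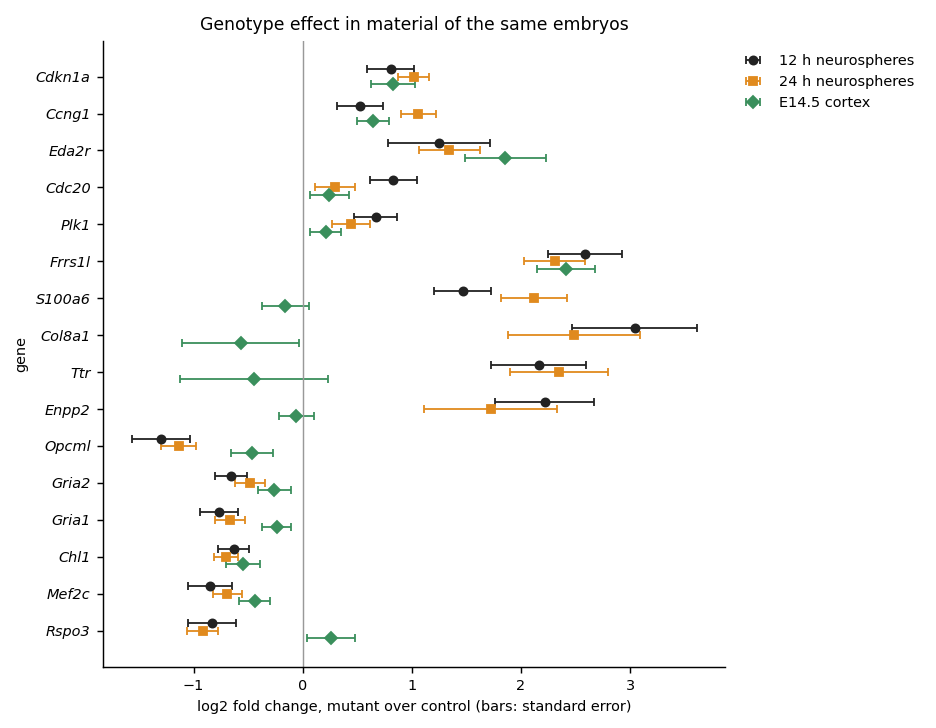
Log2 fold change of mutants over controls (bars are standard errors) for 16 genes in 12 h neurospheres, 24 h neurospheres and E14.5 cortices of the same 6 embryos. *Frrs1l* lies between 2.31 and 2.59 in all 3, while *S100a6*, *Col8a1*, *Ttr* and *Enpp2* are well above 0 in both cultures and near or below 0 in the cortices.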

How the data were processed

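Libraries were made with a 3′ kit from oligo(dT)-primed RNA. Per the labels and the study's methods, the authors checked reads with FastQC 0.11.7, aligned them to GRCm38 with TopHat2 2.0.10 (Bowtie 1.0.0, SAMtools 0.1.19), counted them per gene with HTSeq 0.6.1 using strand, and divided the counts by 1 DESeq2 size factor per library. This deposited signal, normalized read counts of 54658 genes in 24 libraries, was analysed here. In all libraries 100% of values were whole reads (within 1e-08) after division by the value of 1 read, and the recovered reads gave the depths.

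The main test was limma 3.58.1 on log2(value + 1), with a trend, and Benjamini-Hochberg adjustment, applied where the mean of the 6 libraries reached 10 (13389 genes). The minimum is on the mean of both groups, so a gene low in 1 group can pass through the other. *Gli2*, *Gabrb2*, *Prtg*, *Sgms2*, *Kdr* and *Egfl7* passed only through the mutants. Fold changes are on this scale, which understates those of low genes. A call was an adjusted p under 0.05. edgeR 4.0.16 and DESeq2 1.42.0 on the recovered reads, other pseudocounts, minimums, scalings, sample sets and terms for sex and *Gm42418* were alternatives, as was leaving out each library. The fit was tested on simulated data. R 4.3.3 and Python 3.11.15 were used.

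The lists and the comparison were chosen with earlier results of these data known. Genes named were *Cep135* and *Cdkn1a*, 15 genes in each direction, ranked by p, whose groups did not overlap, any gene of the p53 target, G2 and mitosis and neuronal lists and of the study's own list, up to 4 with the smallest p from other lists, and genes called in an alternative where these were 5 or fewer. *Amigo2*, *Cep97*, *Ddx3y*, *Dlx1*, *Dlx6*, *Eif2s3y*, *Gins1*, *Gm20900*, *Hspa5*, *Id1*, *Idi1*, *Igf2bp3*, *Lgals1*, *Myl12b*, *Nsdhl*, *Otx2*, *Pax6*, *Pecam1*, *Plk4*, *S100a10*, *Sp9*, *Srebf2*, *Trp53*, *Uty* and *Zyx* were named after their values were seen, and the promoter search was added then. Positions are from GENCODE vM21 on GRCm38. The embryo number in the labels pairs the 12 h, 24 h and E14.5 libraries, and the correlation of paired deviations from group means ranged from -0.114 to 0.175. Pairing of genotypes is not possible. In the 12 h comparison each library is 1 embryo, so p-values measure the spread between embryos. The interaction fits without a block, and the fits that added the 24 h or all 24 libraries, took libraries of 1 embryo as independent. With the embryo as a block, the p-values measure the spread within embryos.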

Additional observations from a re-analysis of the deposited data

Results flagged for a closer look

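The effect of the genotype at 12 h differed from that in the E14.5 cortex for *Alb*, *Serpina1e* and *Rn7sk*, by an interaction term in limma with the embryo as a block (adjusted p = 0.0139 for each). Without the block the adjusted p was 0.793, 0.793 and 0.405. The difference of the log2 fold changes was 6.23 for *Alb*, the liver gene of serum albumin. Its normalized read counts at 12 h were 107, 57.9 and 206 in mutants against 1.57, 296 and 379 in controls, and in the cortices it was at 0 in the 3 mutants and at 0, 319 and 289 in the controls. The difference was 6.63 for *Serpina1e*, another liver gene, with 152, 44.2 and 235 in mutants against 0, 410 and 158 in controls at 12 h. In the cortices *Serpina1e* was at 0 in the mutants and at 0, 176 and 220 in the controls. Both genes were therefore at or near 0 in control 3. At 24 h *Alb* had 27.2, 36.4 and 59.4 in mutants against 0, 1.69 and 0 in controls (limma adjusted p = 0.0284). *Serpina1e* had 30.8, 34.4 and 113 in mutants there and was at 0 in the controls (limma adjusted p = 0.0144). For *Rn7sk*, a small nuclear RNA that has no poly(A) tail, the difference was -2.38. It had 2345, 3539 and 1544 in mutants against 2500, 2541 and 1461 in controls at 12 h, and 120, 155 and 88.5 against 29.4, 14.52 and 17.4 in the cortices. Its log2 fold change was 2.53 within the cortices (limma adjusted p = 0.0129) and 0.16 at 12 h (limma adjusted p = 0.945).

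For *Gabrb2*, *Cep97* and *Shank1* the genotype groups did not overlap in either material and stood in opposite order, a difference that was not tested by its own fit and that passed no interaction test over all genes. *Gabrb2* was higher in the mutants at 12 h and lower at 24 h, with a log2 fold change of -0.77 there, at low counts. *Cep97* was lower at 12 h and higher in the cortices, with a log2 fold change of 0.27. *Shank1* was lower at 12 h and higher in the cortices, with a log2 fold change of 0.54 from 535, 439 and 481 in mutants against 279, 311 and 425 in controls.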

How the results depend on the processing

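Over the 6 libraries the number of genes with an adjusted p under 0.05 at 12 h was 0 in the fit as reported, and also 0 with a pseudocount of 0.1, a minimum mean of 50, TMM factors or edgeR. It was 1 with a pseudocount of 5, median-of-ratios factors, quantile normalization, a fit with the 24 h libraries or a term for the share of *Gm42418*, and 1 at an adjusted p under 0.1, and the gene was *Frrs1l*. It was 9 with no minimum, 9 with DESeq2, 77 when all 24 libraries were fitted together and 182 once sex was a term, which leaves mutant 6 as the only mutant of its sex. Leaving out 1 library gave 0 to 7 genes (7 without mutant 6). Without mutant 6 both mutants were female and all controls male. The genes called there were *Xist*, the Y-linked *Ddx3y*, *Kdm5d*, *Uty* and *Eif2s3y*, which follow sex, and *Frrs1l* and *Ttr*. *Xist*, *Kdm5d* and *Ddx3y* were also among the 9 with no minimum, and *Xist* among the 9 with DESeq2. With a lone sample left in a term, its spread is assumed to be that of the other libraries. The log2 fold change of *Cep135* ranged from -0.36 to 0.010. Same-numbered libraries came from the same embryo, and with the embryo as a block the effect at 12 h against 24 h still gave 0 genes and that against the cortex 3 in place of 0, with 1 by edgeR. Leaving out 1 embryo gave 0 to 1 against 24 h and 0 to 3 against the cortex (1 and 3 without control 3). No paired fit exists for the 12 h comparison itself, since no embryo has both genotypes. The first principal component held 47.7% of the variance over the 500 most variable genes.

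List medians that moved by more than their spread were, with a term for sex, p53 targets of cell death 0.0028, G2 and mitosis 0.50, S phase and licensing 0.041, CDK inhibitors other than Cdkn1a 0.96, ion channels -0.28, Hedgehog pathway 0.48, BMP ligands and targets 0.69, cortical hem Wnt and R-spondin -0.10, integrated stress and unfolded protein response -0.15, endothelium and pericyte markers 1.59 and erythroid markers -0.028. They were, with a term for *Gm42418*, S phase and licensing -0.17 and integrated stress and unfolded protein response 0.075. They were, with a minimum mean of 50, BMP ligands and targets -0.11, cortical hem Wnt and R-spondin -0.052, interferon response 0.043 and endothelium and pericyte markers 0.39. They were, with no minimum, choroid plexus epithelium markers 0.81 and endothelium and pericyte markers 0.22. They were, with all 24 libraries, endothelium and pericyte markers 0.25. They were, with the 24 h libraries, endothelium and pericyte markers 0.39. Leaving out 1 library at a time, the medians ranged as follows, with p53 targets of cell death 0.14 to 0.62, G2 and mitosis 0.25 to 0.47, S phase and licensing -0.22 to 0.087, axon guidance and Reelin pathway -0.060 to 0.089, Hedgehog pathway 0.042 to 0.41, cortical hem Wnt and R-spondin -0.10 to 0.70, immediate early -0.44 to -0.13, integrated stress and unfolded protein response -0.12 to 0.14, cytosolic heat shock -0.088 to 0.14, interneuron and ventral telencephalon markers -0.34 to -0.15, oligodendrocyte and astrocyte lineage markers -0.48 to -0.0042 and endothelium and pericyte markers 0.11 to 1.97. Genes whose log2 fold change took the other sign were, with edgeR, *Alb* -0.87, *Gria3* 0.0092 and *Serpina1e* -0.39. They were, with DESeq2, *Alb* -0.85, *Gria3* 0.012 and *Serpina1e* -0.38. They were, with a term for sex, *Bcl11b* 0.17, *Rn7sk* -0.44 and *S100a10* 0.29. They were, with a term for *Gm42418*, *Fezf2* 0.015, *Gria3* 0.14, *Nefl* -0.045 and *Trp53* -0.080. They were, with median-of-ratios factors, *Gria3* 0.011 and *Ttk* 0.0086. They were, with TMM factors, *Gria3* 0.00028. They were, with quantile normalization, *Mki67* 0.030 and *Ttk* 0.010. Genes that did so when 1 library was left out had ranges of *Alb* -1.61 to 1.99, *Bax* -0.66 to 0.13, *Bcl11b* -0.21 to 0.084, *Gria3* -0.17 to 0.15, *Hmmr* -0.28 to 0.0033, *Incenp* -0.18 to 0.056, *Mdm2* -0.10 to 0.19, *Mki67* -0.19 to 0.084, *Nefl* -0.13 to 0.26, *Rn7sk* -0.14 to 0.45, *Serpina1e* -1.12 to 3.22, *Tbr1* -0.081 to 0.45, *Trp53* -0.19 to 0.51, *Ttk* -0.20 to 0.16 and *Zyx* -0.43 to 0.068. The cause of these shifts was not tested. All of these genes failed the test at 12 h. Of the 30 genes apart with the smallest p, 30 kept their direction under every alternative. They were chosen because their groups did not overlap in these libraries. Leaving out a library could therefore not turn their direction, and the count is no evidence of stability. With 3 libraries against 3 the exact test cannot go below 0.1, and depth limits the genes with few reads.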
